A study of Mus musculus with 84 samples.

Results

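The step from pGM to GMP was followed in bone marrow of 10 week old control mice. pGM are pre-granulocyte-monocyte progenitors and GMP are the granulocyte-monocyte progenitors that come after them. The comparison took every 10 week control library of the 2 populations, 8 of pGM and 8 of GMP, out of 84 libraries in the series, and joined them into 8 pairs by the identifier in the labels. Identifiers 76, 80, 87 and 88 have 2 digits, as those of the 10 week libraries labelled MLL-ENL do, and identifiers 4892, 4894, 5898 and 5899 have 4 digits, as those labelled MLL-ENL (x2) do. The labels do not call either set a batch. All 16 libraries are labelled wild type, control and without doxycycline. They are controls of a study in which a tetracycline-regulated transgene for the leukemia fusion MLL-ENL is induced at different ages, and their label also carries the note fetal induction. The labels do not say whether an identifier is 1 animal, so the p-values below measure the spread between these samples. The sources used here do not give the sorting gates. For reference, values are also given for HPC, labelled as committed hematopoietic progenitor cells, of the same 8 identifiers, and for control pGM (3 libraries) and GMP (4 libraries) of neonatal liver at P0, the day of birth, also wild type and without doxycycline.

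Granulocytes and monocytes arise in the marrow from progenitors that lose the options for platelets, red cells and lymphocytes one after another. Cells at the GMP stage make the proteins of the primary (azurophil) granules, myeloperoxidase and a family of serine proteases. These are loaded into granules through the endoplasmic reticulum and later kill ingested microbes. The transcription factors PU.1 and the C/EBP family are known to drive this program, and GFI1 and C/EBP epsilon are known to steer it toward neutrophils.

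The 16 libraries held 14018648 to 21139291 counts of mouse genes each. The 10 most abundant genes of a library took 6.80 to 7.84% of its counts in pGM and 12.2 to 14.5% in GMP, and mitochondrial transcripts took 0.404 to 1.70% in all 16. The transgene rows held 0 to 4 counts a library. Ddx3y, a Y-linked gene, was found in both libraries of identifiers 76, 87 and 4892, and Xist in both libraries of the other 5, so each pair matched in sex. Labelled populations were set against antigens commonly used to sort them. Kit and Cd34, which mark progenitors, were present in all 16 libraries (328, 541 and 880.2 CPM in pGM and 221, 345 and 692 CPM in GMP for Kit, as lowest, median and highest CPM, the count relative to the scaled library total). Fcgr3, the Fc receptor commonly used to separate GMP from pGM, ran at 20.9, 27.7 and 47.3 CPM in pGM and 304, 421 and 1010.4 CPM in GMP, with no overlap. Since such genes may have chosen the cells, their differences are no finding here. The same limit holds where Kit, Cd34, Flt3 and Il7r recur in the lists below. They were 2 higher (Fcgr3 and Fcgr2b) and 8 lower (Kit, Ly6a, Cd34, Slamf1, Eng, Cd48, Flt3 and Il7r) of 10.

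The step changed many genes. Of 13208 genes that passed the filter on low counts, 2978 were higher in GMP (22.5% of those tested) and 3370 lower (25.5%) at an adjusted p under 0.05 (edgeR quasi-likelihood F test with the identifier as a block, Benjamini-Hochberg over all genes tested). The large changes were mainly losses: 599 genes rose at least 2-fold (4.54%) and 1436 fell at least 2-fold (10.9%), and at 8-fold the counts were 89 and 330. The median log2 fold change of all genes tested was -0.02. All 8 GMP libraries lay above all 8 pGM libraries for 543 genes (4.11%) and below them for 858 (6.5%). Counts within the gene lists that follow are to be read against these shares. In sorted bulk RNA, fewer cells of a type and less RNA per cell cannot be told apart.

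**Figure D1:**
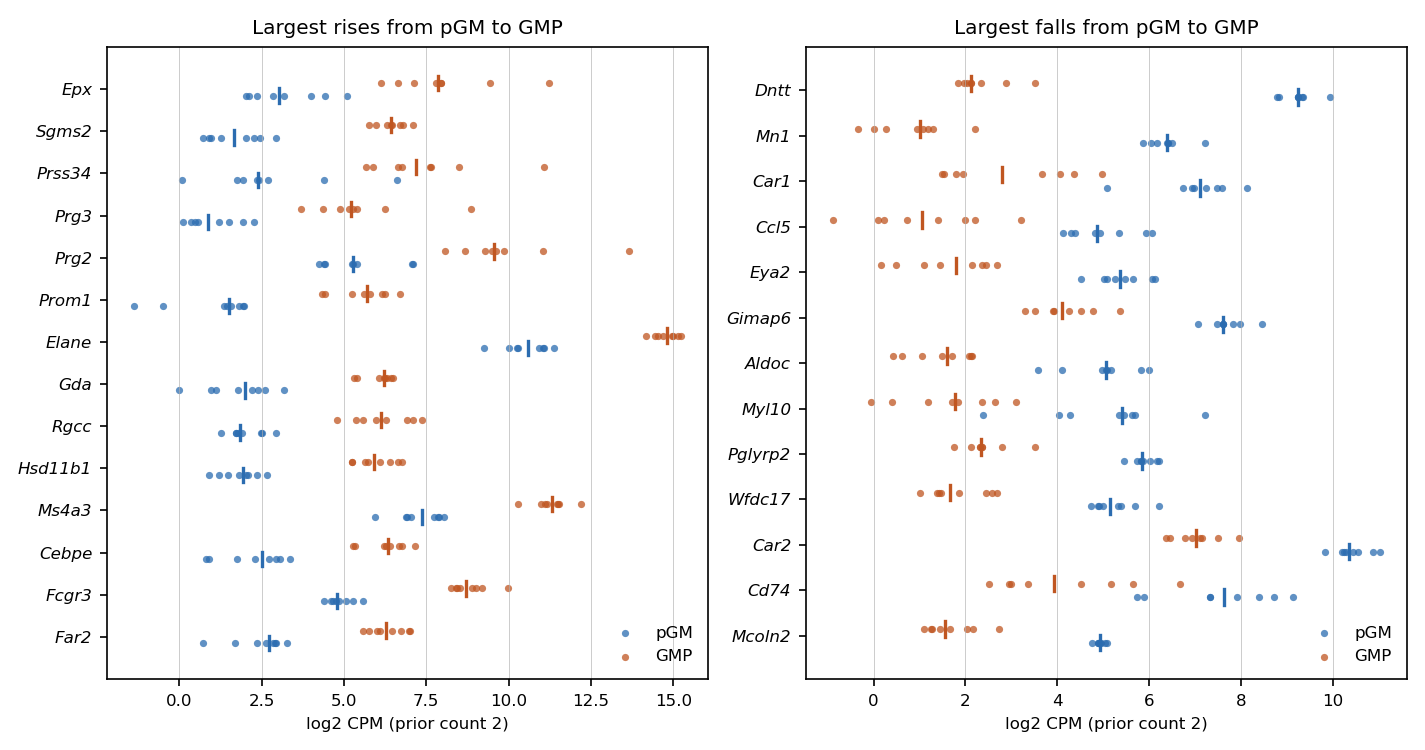
Expression of genes among the largest rises and falls from pGM to GMP. The x axis is log2 CPM with a prior count of 2, each point is 1 of 8 libraries of a population and each short vertical line the median of the 8. In most rows the blue pGM points and the orange GMP points form separate groups, while Prss34, Myl10 and Cd74 overlap.

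Genes of the primary granule rose together. Of 15 tested members of that list, 14 rose and none fell, with a median log2 fold change of 1.65, and 11 of the 15 had all GMP libraries above all pGM libraries, beside 4.11% of all genes tested. Together the 17 listed genes took 2.13 to 3.04% of counts in pGM and 8.92 to 11.9% in GMP. Mpo, which encodes myeloperoxidase, was the most abundant transcript of both populations, with a median of 1.85% of counts in pGM and 5.71% in GMP. It ran at 13642, 16171 and 20889 CPM in pGM and 47616, 61884 and 70035 CPM in GMP, a log2 fold change of 1.83 ± 0.09 (SE, as after each ± here) with an adjusted p of 9.48e-10. Elane, the gene of neutrophil elastase, started from far less and ended second, at a median of 2.67% of GMP counts.

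Levels of Elane were 603, 1586 and 2636 CPM in pGM and 18504, 29016 and 38297 CPM in GMP (log2 fold change 4.25 ± 0.18, adjusted p 2.62e-10). Prtn3, which encodes proteinase 3, ran at 979.8, 1516 and 1925 CPM in pGM and 3366, 5931 and 7078 CPM in GMP (log2 fold change 1.93 ± 0.08). Ctsg, the gene of cathepsin G, ran at 386, 504 and 559 CPM in pGM and 1557, 2267 and 3279.5 CPM in GMP (2.22 ± 0.09). None of these 4 genes overlapped between populations. Ms4a3, a membrane protein gene used as a marker of GMP and their progeny, had 61.5, 172 and 264 CPM in pGM and 1250.2, 2578 and 4708 CPM in GMP and rose by 3.995 ± 0.14, and Prss57, a further granule serine protease, rose by 2.23 ± 0.11. The member that was not called was Lyz2, the gene of lysozyme, at 261, 347 and 424 CPM in pGM and 249, 296 and 413 CPM in GMP (log2 fold change -0.18 ± 0.08, adjusted p 0.0725). In HPC the medians were lower still for Mpo (2851 CPM), Elane (352 CPM) and Ctsg (46.5 CPM).

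The sequences before the starts of 3 granule genes are shown because these genes rose together and lie under known control of PU.1. Promoters are those of RefSeq on GRCm38.p6 (mm10), taken for 12 of the 15 tested members, and each line gives the 250 bases before the start. Capitals mark GAGGAAG on either strand, the core that PU.1 and other ETS factors bind. Elane lies at chr10:79886062-79886311 (plus strand), Prtn3, its neighbour, at chr10:79879417-79879666 (plus), and Mpo at chr11:87793534-87793783 (plus).
Elane: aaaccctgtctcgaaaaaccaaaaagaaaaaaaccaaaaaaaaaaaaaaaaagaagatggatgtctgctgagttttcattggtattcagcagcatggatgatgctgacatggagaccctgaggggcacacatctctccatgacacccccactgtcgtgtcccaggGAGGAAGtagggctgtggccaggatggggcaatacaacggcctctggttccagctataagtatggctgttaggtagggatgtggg
Prtn3: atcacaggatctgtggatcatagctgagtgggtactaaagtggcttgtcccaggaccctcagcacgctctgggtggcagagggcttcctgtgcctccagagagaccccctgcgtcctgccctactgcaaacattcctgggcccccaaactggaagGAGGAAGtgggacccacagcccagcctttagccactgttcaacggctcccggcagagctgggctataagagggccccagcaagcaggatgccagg
Mpo: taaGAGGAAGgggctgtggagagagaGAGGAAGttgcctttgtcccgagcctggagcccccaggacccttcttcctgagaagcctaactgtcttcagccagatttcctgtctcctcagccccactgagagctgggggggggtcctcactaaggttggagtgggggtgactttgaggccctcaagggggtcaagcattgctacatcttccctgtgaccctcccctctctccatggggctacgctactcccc
The core begins 85 bases before the start in Elane, 95 in Prtn3 and 247 in Mpo, where a further copy begins at 224. Over the window from 250 bases before to 50 after the start, 7 of the 12 granule genes (58.3%) held it, against 16.4% of the 9808 tested genes with a promoter and 15.4% of all 27025 genes in the table. Among genes past 2-fold the share was 18.9% for those that rose and 20.9% for those that fell. The C/EBP core TTGCNNAA was found in 2 of the 12 (16.7%), against 10.3% of tested genes. The ETS core was looked for because PU.1 is known to control granule genes, so this list is no independent test of it. These are matches of letters in a window, and nothing about binding was measured.

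Of the transcription factors of myeloid cells, 7 rose, 8 fell and 6 were not called among 21 tested, beside 22.5% higher and 25.5% lower among all genes. All 4 listed genes of the C/EBP family, Cebpa, Cebpb, Cebpd and Cebpe, rose and were higher in 8 of 8 pairs. Cebpe, needed for the later stages of neutrophil maturation, made the largest change, from 1.62, 5.64 and 10.2 CPM in pGM to 38.2, 80.2 and 141 CPM in GMP (log2 fold change 3.99 ± 0.19, adjusted p 6.59e-10), and its populations did not overlap. Cebpd rose by 1.62 ± 0.22, Cebpb by 1.29 ± 0.22 and Cebpa by 0.65 ± 0.12, the last with overlapping populations (15.1, 19.4 and 30.8 CPM in pGM and 16.7, 34.9 and 50.6 CPM in GMP). Levels of Cebpb and Cebpd were low, with a mean log2 CPM of 0.75 and 1.10 over the 10 week and P0 libraries of pGM and GMP. Gfi1, a repressor that favours the neutrophil over the monocyte fate, rose without overlap from 3.34, 6.73 and 10.1 CPM in pGM to 13.6, 23.0 and 31.0 CPM in GMP (1.74 ± 0.13). Myb rose by 0.68 ± 0.07 and Spi1, the gene of PU.1, by only 0.35 ± 0.11 (adjusted p 0.0119, and 0.0852 without the block). Irf8, which directs monocyte and dendritic cell fates, gave 112, 202 and 333 CPM in pGM and 88.2, 195 and 266 CPM in GMP, and its log2 fold change of -0.07 ± 0.15 was not called (adjusted p 0.719). Among factors tied to dendritic or lymphoid cells, Irf4 fell by 3.63 and Batf3 by 3.97 on the log2 scale, both from under 5 CPM. Runx1 fell by 0.29 (adjusted p 0.0364), a call that was lost without identifier 80, 88, 4894, 5898 or 5899 (adjusted p 0.0706 to 0.103).

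Cytokine receptors moved in both directions, 9 higher and 10 lower of 24, beside 22.5% and 25.5% of all genes. Ifngr1, a chain of the interferon gamma receptor, rose without overlap from 269, 301 and 355 CPM in pGM to 665, 797 and 1012 CPM in GMP (1.38 ± 0.09, adjusted p 1.39e-08). Csf2ra, the specific chain of the GM-CSF receptor, rose by 0.88 ± 0.14, Il3ra by 0.70 ± 0.19 and Csf1r, the M-CSF receptor, by 0.39 ± 0.12 (adjusted p 0.0118). The call of Csf1r was lost without the block (adjusted p 0.134) and with the set as a covariate in its place (0.051). Csf3r, the receptor of G-CSF and hence of neutrophil growth, did not pass the test, with 129, 163 and 185 CPM in pGM and 142, 156 and 206 CPM in GMP and a log2 fold change of 0.05 ± 0.09. Among the falls, Flt3, a receptor of early lymphoid-primed progenitors, fell by 2.85 and Epor, the erythropoietin receptor, by 2.32 on the log2 scale. The interleukin 1 receptor gene Il1r1 fell by 2.34 and Tgfbr2 by 1.34. Flt3 and Kit, both counted among the lower genes, may have chosen the cells.

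The secretory machinery rose with the granule genes. All 20 listed genes of protein folding in the endoplasmic reticulum passed the test: 19 were higher, with a median log2 fold change of 1.14 for the list, and 1, Ddit3, was lower. Their summed share of counts went from a range of 0.680 to 1.16% in pGM to 1.43 to 2.22% in GMP. Manf, a secreted stress factor, ran at 99.1, 188 and 231 CPM in pGM and 245, 510.5 and 732 CPM in GMP (1.47 ± 0.06, adjusted p 2.92e-10). Hspa5, the chaperone BiP, ran at 736, 1378 and 2117 CPM in pGM and 1861, 3019.7 and 5689 CPM in GMP, so the ranges overlapped, yet it was higher in GMP in 8 of 8 pairs (1.29 ± 0.07). P4hb, a protein disulfide isomerase, rose by 1.43 ± 0.08, Dnajc3, a cochaperone, by 1.25 ± 0.08, Calr by 1.18 ± 0.08 and Hsp90b1 by 1.11 ± 0.07. Ddit3, the gene of CHOP, which is induced when folding stress lasts, fell by 0.62 (adjusted p 0.00053), a call that was lost without the identifier as a block (adjusted p 0.147).

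Promoters of 3 of these chaperones are shown because they share a rare sequence. Capitals mark the endoplasmic reticulum stress element (CCAAT, any 9 bases, CCACG) on either strand, which ATF6 and NF-Y are known to bind and which was first described in chaperone promoters, so these genes are no independent test of it. Hspa5 lies at chr2:34771840-34772089 (plus strand), Hsp90b1 at chr10:86705445-86705694 (minus) and Calr at chr8:84846932-84847181 (minus), each for the 250 bases before the start in RefSeq on GRCm38.p6.
Hspa5: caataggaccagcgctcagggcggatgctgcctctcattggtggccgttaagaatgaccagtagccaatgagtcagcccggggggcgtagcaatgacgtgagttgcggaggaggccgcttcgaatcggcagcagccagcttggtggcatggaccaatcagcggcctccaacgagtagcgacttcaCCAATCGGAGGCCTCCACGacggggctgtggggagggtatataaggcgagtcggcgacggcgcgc
Hsp90b1: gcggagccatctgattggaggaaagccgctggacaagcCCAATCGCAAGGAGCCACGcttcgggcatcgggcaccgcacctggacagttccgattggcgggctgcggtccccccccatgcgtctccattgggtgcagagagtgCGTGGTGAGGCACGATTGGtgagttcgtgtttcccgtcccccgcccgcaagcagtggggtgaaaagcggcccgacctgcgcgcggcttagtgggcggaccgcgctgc
Calr: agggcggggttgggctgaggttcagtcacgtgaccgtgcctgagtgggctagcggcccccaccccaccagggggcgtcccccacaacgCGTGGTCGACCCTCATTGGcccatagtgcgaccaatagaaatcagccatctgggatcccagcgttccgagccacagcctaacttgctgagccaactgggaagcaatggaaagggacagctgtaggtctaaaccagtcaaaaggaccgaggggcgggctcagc
In the window of 300 bases, 7 of 15 list members with a promoter in the table (46.7%) held the element: Calr, Canx, Hspa5, Hsp90b1, Pdia6, Dnajc3 and Creld2. Of all 9808 tested genes with a promoter 16 held it (0.163%), and among all 27025 genes with a promoter the share was 0.137%.

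Other metabolic groups had smaller medians or were divided. In haem synthesis 5 of 11 genes rose and 1 fell, and Alas1, the rate-limiting enzyme outside red cells, ran at 310.5, 446 and 530.5 CPM in pGM and 1748, 2334 and 3139 CPM in GMP (log2 fold change 2.48 ± 0.09, adjusted p 1.02e-10). Myeloperoxidase is itself a haem protein. Of 20 lysosomal genes 12 rose and 3 fell (median 0.36), among them Gla (1.72 ± 0.09), Neu1 (1.74 ± 0.13), Hexa (0.80 ± 0.07) and Ctsz (0.94 ± 0.08), which encode hydrolases. Oxidative phosphorylation had 15 of 22 higher and none lower, with a median of 0.28 (Uqcrc1 0.50 ± 0.06). Ribosome biogenesis had 10 of 21 higher and none lower, with a median of 0.22 (Nhp2 0.40 ± 0.07). The summed share of counts overlapped between populations for both lists, with medians of 1.35% in pGM and 1.31% in GMP for oxidative phosphorylation and 0.731% and 0.724% for ribosome biogenesis. These shares are of unscaled totals. The TMM scaling factors had medians of 1.09 in pGM and 0.93 in GMP, so rises as small as these list medians depend on the scaling. Cell cycle lists had medians near 0, with 8 higher and 1 lower of 20 mitosis genes (median 0.13, Aurkb 0.35 ± 0.06 and not called without the block, Cenpf -0.51 ± 0.09) and 6 higher and 1 lower of 22 replication genes (median 0.09, Rrm2 0.67 ± 0.07). In cholesterol synthesis 4 were higher and 4 lower of 19, with Fdps at 0.81 ± 0.07 and its regulator gene Srebf2 at -0.95 ± 0.10. The counts of the replication and cholesterol lists lie near or below the shares of all genes, 22.5% higher and 25.5% lower.

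**Figure D2:**
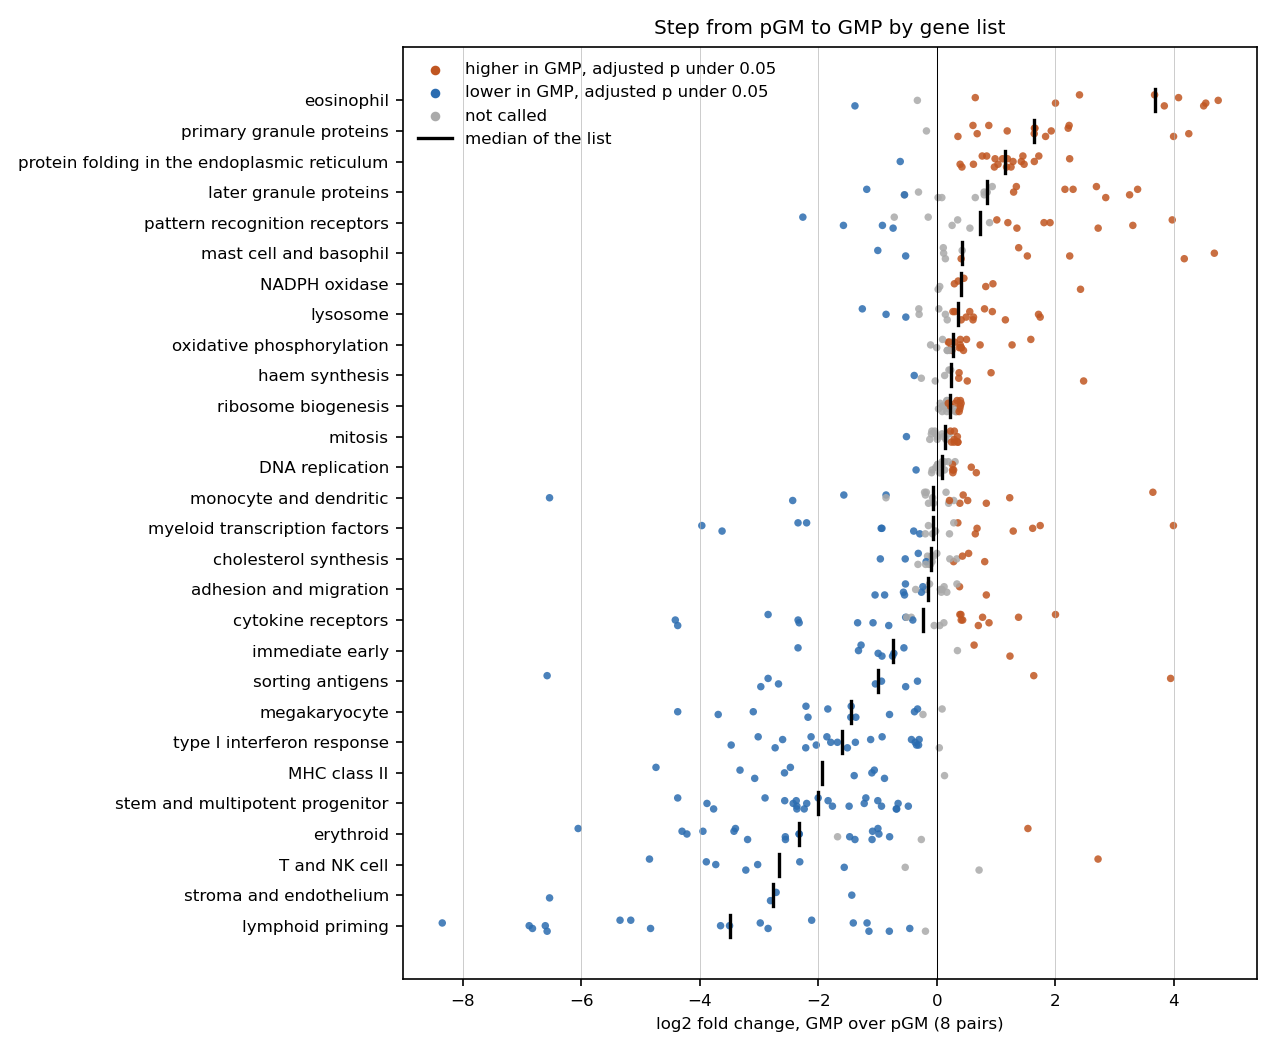
Log2 fold change from pGM to GMP of each tested member of the 28 gene lists, ordered by list median. Each point is a gene, orange where it was higher in GMP and blue where it was lower at an adjusted p under 0.05, grey where not called, and black lines are list medians. Lists of primary granule proteins and of folding in the endoplasmic reticulum sit almost wholly right of 0, and those of stem, lymphoid, erythroid and interferon genes almost wholly left.

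Genes of later neutrophil granules were mixed. Of 19 tested, 8 rose, 2 fell (Padi4 and Itgam) and 9 were not called, among them Ltf, Camp, Ngp, Mmp8 and Mmp9, which mark the myelocyte stage and beyond. Hp, haptoglobin, rose without overlap from 67.9, 124 and 235 CPM in pGM to 588, 956 and 1259 CPM in GMP (2.85 ± 0.13, adjusted p 5.69e-10). Pglyrp1, which binds bacterial cell walls, rose by 2.69 ± 0.13, Anxa1 by 1.30 ± 0.13 and Fcnb, a ficolin, by 3.25 ± 0.30. S100a8, a calprotectin gene abundant in mature neutrophils, ran at 1.28, 18.9 and 317 CPM in pGM and 9.81, 186 and 330.1 CPM in GMP (2.30 ± 0.46). Both libraries of identifiers 4892 and 4894 were high, so the populations overlapped. Its partner S100a9 was higher in 5 of 8 pairs (1.34 ± 0.43, adjusted p 0.0182). Both calls were lost without the block, and that of S100a9 also without identifier 80, 88, 5898 or 5899 (adjusted p 0.0530 to 0.0677). In the NADPH oxidase, which makes the oxidative burst, 6 of 8 genes rose and none fell, and the catalytic subunit gene Cybb led with 2.42 ± 0.27, before Ncf1 (0.95 ± 0.09) and Cyba (0.83 ± 0.10). The list median was 0.41. The list's summed share of unscaled counts overlapped between populations, with medians of 0.279% in pGM and 0.286% in GMP.

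Monocyte and dendritic genes moved in both directions, 7 higher and 4 lower of 21 (median -0.06), not far from the 22.5% and 25.5% of all genes. Ly6c2, a surface marker of monocytes and their progenitors, rose without overlap from 65.7, 78.0 and 121 CPM in pGM to 642, 1070.3 and 1758 CPM in GMP (3.65 ± 0.16), and F13a1 rose by 1.23 ± 0.11. Ccr2, the receptor that brings monocytes out of the marrow, rose by 0.83 ± 0.12. Ctss fell by 0.86, and Siglech, which marks plasmacytoid dendritic cells, ran at 0.139, 2.41 and 11.9 CPM in pGM and 0, 0 and 0.0900 CPM in GMP, with no count in 5 of the 8 GMP libraries. Of 18 pattern recognition receptors 8 rose and 4 fell, with the lectin receptors Clec4a2 (3.97 ± 0.26), Clec5a (3.31 ± 0.17) and Clec7a (1.91 ± 0.13) among the rises, and Cd14 (1.35 ± 0.10). In the adhesion list 2 of 18 rose and 7 fell. Icam1, a ligand of leukocyte integrins, fell by 1.04 on the log2 scale, without overlap.

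Eosinophil genes were among the largest rises and varied widely between libraries. Of 11 tested, 9 rose and 1 fell, with a median log2 fold change of 3.68. Epx, eosinophil peroxidase, ran at 3.91, 8.02 and 34.0 CPM in pGM and 69.2, 233 and 2419 CPM in GMP (4.75 ± 0.55, adjusted p 5.53e-06). Prg2, major basic protein, ran at 18.7, 38.1 and 138 CPM in pGM and 270.4, 757 and 12963 CPM in GMP (4.50 ± 0.58), and its paralog Prg3 at 0.952, 1.76 and 4.65 CPM in pGM and 12.8, 37.0 and 462 CPM in GMP (4.54 ± 0.42). Populations did not overlap for any of the 3, but 1 GMP library, that of identifier 80, lay far above the other 7 in each. The list took 1.31% of its counts, against 0.0399 to 0.259% in the other GMP libraries and 0.0107 to 0.0319% in pGM. Without identifier 80 the list's median was 2.85, with the same counts of 9 higher and 1 lower, and the log2 fold changes were 4.27 for Epx, 4.05 for Prg2 and 4.05 for Prg3. Ear1, Ear2 and Ear6 are closely related genes, and how reads were split among them is uncertain. The member that fell was Gata1, a factor of eosinophils, mast cells, platelets and red cells, from 50.3, 67.5 and 75.8 CPM in pGM to 14.7, 25.1 and 40.7 CPM in GMP (-1.38 ± 0.15).

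Mast cell and basophil genes gave 6 higher and 2 lower of 12 (median 0.42). Prss34, a basophil protease, rose by 4.68 ± 0.47 from 0.931, 5.09 and 98.0 CPM in pGM to 50.4, 152 and 2174 CPM in GMP, with identifier 80 again highest in GMP and identifier 88 highest in pGM. Hdc, which makes histamine, rose without overlap from 71.8, 105 and 144 CPM in pGM to 403, 511 and 707 CPM in GMP (2.24 ± 0.13), and Mcpt8 rose by 1.53 ± 0.17. Whether these transcripts come from rare committed cells in the gate was not tested. The remaining large rises were of varied function: Sgms2, a sphingomyelin synthase (4.72 ± 0.21), Prom1, a membrane protein known as CD133 (4.46 ± 0.19), Gda, guanine deaminase (4.22 ± 0.23), Rgcc (4.19 ± 0.24), Hsd11b1, which activates glucocorticoids (4.17 ± 0.21), and Far2, a fatty alcohol enzyme (3.88 ± 0.17). Each was higher in 8 of 8 pairs without overlap.

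Stem and multipotent progenitor genes fell without exception. All 23 passed the test as lower, with a median of -2.004, and 14 had every GMP library below every pGM library, beside 6.5% of all genes tested. Among the 23, Cd34 may have chosen the cells. Meis1, the partner of Hox proteins, fell from 273, 296 and 379 CPM in pGM to 48.9, 62.4 and 116 CPM in GMP (-2.20 ± 0.12, adjusted p 2.8e-09), with a median of 562 CPM in HPC. Mn1, a coactivator that blocks myeloid maturation when overproduced, is not on the list and fell without overlap from 58.4, 84.1 and 149 CPM in pGM to 0.677, 1.91 and 4.49 CPM in GMP (-5.53 ± 0.20), and its HPC median was 406 CPM. Hlf, a factor of stem cells, fell by 2.24 and Gfi1b, the relative of Gfi1 used by stem cells and megakaryocytes, by 2.90 on the log2 scale. Eya2, also off the list, fell by 3.76. The list's summed share fell from a range of 0.256 to 0.324% of counts in pGM to 0.0782 to 0.158% in GMP, where identifier 76 was highest.

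Genes of the platelet and red cell lineages fell as well. Of 14 megakaryocyte genes 12 fell and none rose (median -1.45), with Selp at -2.21 ± 0.12 and Gp9 at -1.45 ± 0.12, both without overlap. Of 21 erythroid genes 18 fell and 1 rose (median -2.32). Car1 and Car2, carbonic anhydrases, were among the largest falls. Car2 went from 916, 1322 and 2085 CPM in pGM to 82.7, 131 and 251 CPM in GMP (-3.40 ± 0.14, adjusted p 1.35e-10), with an HPC median of 3705 CPM. Car1 went from 34.1, 138 and 279 CPM in pGM to 2.71, 8.19 and 31.5 CPM in GMP (-3.95 ± 0.28) and differed from Car2 in HPC, where its median was 6.79 CPM, below every pGM library. The gene that rose was Tfrc, the transferrin receptor, at 1.54 ± 0.12. Globin genes of near-identical sequence (Hba-a1 and Hba-a2, Hbb-bs and Hbb-bt) were counted in this list, and the split of their reads is uncertain.

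Lymphoid genes had a list median of -3.50 (-3.85 in the 2-digit and -2.99 in the 4-digit set), with 18 lower and none higher of 19. Dntt, the terminal transferase of antigen receptor joining, ran at 442, 609 and 992 CPM in pGM and 3.44, 4.23 and 11.4 CPM in GMP (log2 fold change -6.88 ± 0.18, adjusted p 2.59e-12), and its HPC median was 1490.1 CPM. Lax1, an adaptor of lymphocyte signalling, fell by 3.65, Ccr9, a homing receptor of thymus-seeding cells, by 5.17, and Il7r, the interleukin 7 receptor, by 6.58, all without overlap. Il7r and Flt3, both counted among the lower genes, may have chosen the cells. Cd79b alone was not called. In all, 22 tested genes had no count in any of the 8 GMP libraries and none lacked counts in all pGM libraries. Among these Rag1, the recombinase gene, ran unevenly at 0.204, 2.03 and 9.51 CPM in pGM.

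B-lineage genes within that list were uneven between pGM libraries. Ebf1, which commits cells to the B lineage, ran at 1.63, 18.0 and 53.2 CPM in pGM and 0.0749, 0.136 and 0.306 CPM in GMP. Its HPC median was 2.48 CPM, under the pGM median. The sum over 7 such genes (Ebf1, Pax5, Cd79a, Blnk, Igll1, Vpreb1 and Rag1, grouped after their values were seen) was 19.3 to 480.4 CPM in pGM, 24.5 to 60.4 CPM in HPC and 4.80 to 8.66 CPM in GMP. This sum is relative to the unscaled library total, unlike the CPM of single genes. In pGM it was highest in identifiers 76 and 80, at 480.4 and 385 CPM, and lowest in 4892 and 4894, at 19.3 and 33.2 CPM. At least 6 of the 7 genes had a count in every pGM library, and 4 to 6 of 7 in each GMP library. The part of other cells in these values was not tested.

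Genes of antigen presentation and of the interferon response fell too. In MHC class II 9 of 10 genes were lower and none higher (median -1.93). H2-Ob fell without overlap from 75.1, 101 and 174 CPM in pGM to 9.92, 17.7 and 44.2 CPM in GMP (-2.47 ± 0.10), H2-DMa fell by 0.88, and Cd74, the invariant chain, fell from 53.2, 203 and 564 CPM in pGM to 5.60, 16.4 and 101 CPM in GMP (-3.32 ± 0.28), with identifier 88 within the pGM range. In the type I interferon list 19 of 20 genes were lower, Bst2 alone was not called, and the median was -1.59. Rtp4 fell from 58.7, 71.6 and 82.7 CPM in pGM to 6.24, 8.47 and 12.1 CPM in GMP (-3.02 ± 0.12, adjusted p 1.35e-10), Irf7, the amplifier of the response, from 29.9, 32.5 and 40.9 CPM in pGM to 6.71, 8.13 and 10.4 CPM in GMP (-2.04 ± 0.11), and Ifi44 and Oasl2 by 3.47 and 1.86. None of these 4 overlapped. Levels in HPC were higher again, with medians of 223 CPM for Rtp4 and 99.1 CPM for Irf7.

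Promoters of 2 interferon genes that fell are shown for the element they share. Capitals mark GAAA, any 2 bases, GAAA on either strand, the core of the interferon-stimulated response element, and overlapping matches run together. Ifit1 (-2.21 ± 0.20) lies at chr19:34640639-34640888 (plus strand) and Isg15 (-1.12 ± 0.13) at chr4:156200819-156201068 (minus), 250 bases before the start in RefSeq on GRCm38.p6.
Ifit1: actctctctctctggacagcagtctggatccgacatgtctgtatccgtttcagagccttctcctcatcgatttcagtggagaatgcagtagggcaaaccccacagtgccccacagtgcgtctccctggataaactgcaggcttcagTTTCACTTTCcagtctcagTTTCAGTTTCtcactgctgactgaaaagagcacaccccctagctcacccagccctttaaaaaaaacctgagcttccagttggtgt
Isg15: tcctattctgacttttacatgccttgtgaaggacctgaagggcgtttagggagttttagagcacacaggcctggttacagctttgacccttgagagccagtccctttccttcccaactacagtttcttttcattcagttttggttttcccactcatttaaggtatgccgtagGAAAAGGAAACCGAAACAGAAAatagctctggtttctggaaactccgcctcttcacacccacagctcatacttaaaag
The core was found in 10 of 14 list members with a promoter in the table (71.4%), against 3.86% of tested genes and 3.99% of all genes. Among genes past 2-fold the share was 4.33% for those that rose and 5.93% for those that fell. The list was drawn up from genes of the interferon response, so it is no independent test of the element, and nothing about binding was measured.

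Markers of other cells that could enter a gate mostly fell. Of 10 tested T and NK cell genes 7 were lower and 1, Gzmb, higher, and the 16 listed genes took 0.00735 to 0.0144% of counts in pGM and 0.000922 to 0.0145% in GMP. Lck, a kinase of T cell signalling, fell from 42.5, 64.0 and 79.5 CPM in pGM to 4.65, 6.25 and 11.5 CPM in GMP (-3.23 ± 0.17), and Ccl5, a chemokine of T and NK cells, fell by 3.79 on the log2 scale. Of 15 stromal and endothelial genes 11 were too low to test and the other 4 fell, Sparc from 0.815, 7.08 and 51.0 CPM in pGM to 0, 0.166 and 0.301 CPM in GMP and Emcn from 12.3, 15.9 and 20.7 CPM in pGM to 0.979, 2.67 and 4.05 CPM in GMP. Among immediate early genes, which respond to handling and stimulation, 8 fell and 2 rose of 11. Zfp36 fell by 1.32 and Btg2 by 0.93, while Fos rose by 1.23 ± 0.18. Their part in the other results was not tested. Further large falls with no list of their own were Gimap6 (-3.50 ± 0.14), a GTPase gene of lymphocytes, Aldoc (-3.50 ± 0.30), an aldolase, Myl10 (-3.46 ± 0.16), Pglyrp2 (-3.46 ± 0.16), Wfdc17 (-3.44 ± 0.21) and Mcoln2 (-3.23 ± 0.17), an endolysosomal channel.

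Most genes called in both sets of identifiers moved in the same direction. With the step fitted within each set, 1947 genes were higher and 2284 lower among the 2-digit identifiers (32% of genes tested called) and 1999 higher and 2552 lower among the 4-digit ones (34.5%). These fits share 1 estimate of the spread. Fitted alone, the 2-digit set gave 1210 higher and 1552 lower and the 4-digit set 2914 and 3059. Both sets called 3293 genes, which is 77.8% of the calls of the first and 72.4% of those of the second, and 3292 of these had the same sign. The exception was Aif1, a macrophage gene, at -0.98 ± 0.29 (SE) in the 2-digit and 0.85 ± 0.28 in the 4-digit set. Of the 2035 genes past 2-fold over 8 pairs, all 2035 had the same sign in both sets and 1583 were called in both. These 2035 were chosen in the fit over both sets, so their shared sign was nearly fixed in advance. Over all 13208 genes tested, 82.4% had the same sign in both sets. Over all genes Pearson's r of the log2 fold changes was 0.88 and Spearman's rho 0.82, a description across genes, which are not independent replicates and here share 1 normalisation. With each set normalised and fitted alone r was 0.91 over 11913 genes.

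Tested directly, no gene differed between sets at an adjusted p under 0.05 (edgeR, smallest adjusted p 0.152), while 655 genes (4.96%) did so at an unadjusted p under 0.05. On simulated counts this test found 49.0% of 2-fold and 74.2% of 4-fold differences, so a lack of calls does not show equal steps. DESeq2 called 6, among them Car2, Ctla2a, Calcrl and Selenom with a lower and Sema4a with a higher value in the 4-digit set. Elane rose by 4.29 and 4.21, and the sets lay near each other also for Mpo (1.80 and 1.86) and Dntt (-6.98 and -6.79). Changes tended to be larger among the 4-digit identifiers: the median absolute log2 fold change of the 2035 genes was 1.70 in the 2-digit set, 1.78 there without identifier 76, and 1.89 in the 4-digit set, and 64.6% of these genes lay farther from 0 in the latter. List medians lay apart for eosinophil genes (5.36 in the 2-digit and 1.95 in the 4-digit set), later granule proteins (1.61 and 0.43) and the interferon response (-1.02 and -2.13), among others. These list differences were not tested. The 2-digit set holds identifier 80, whose GMP gave 1.31% of counts to the eosinophil list. In the 4-digit set, pGM of 4892 and 4894 were the highest pGM libraries for the eosinophil and later granule lists. The part of single libraries in the list medians of the sets was not tested.

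**Figure D3:**
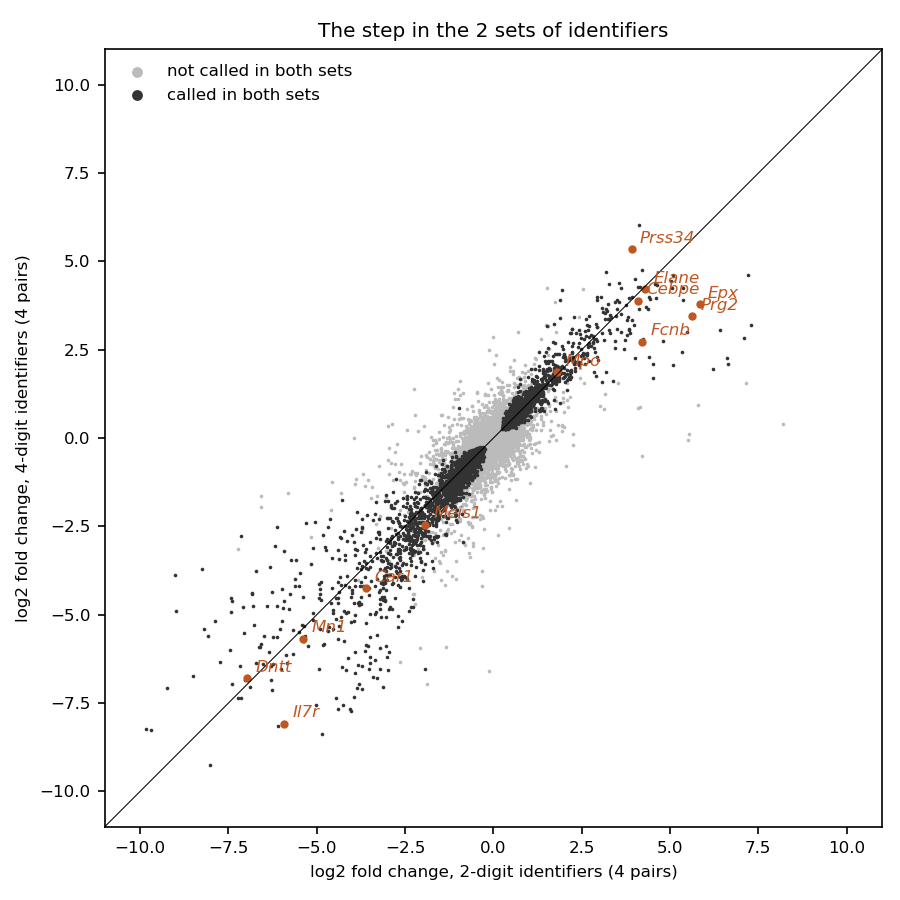
Log2 fold change from pGM to GMP of 13208 genes in the 4 pairs with 2-digit identifiers (x axis) and the 4 pairs with 4-digit identifiers (y axis). Black points were called in both sets, orange points are labelled genes and the line marks equal values. Points follow the line, with Elane, Mpo and Dntt close to it and Epx and Prg2 below it.

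Single libraries were placed on the step by genes chosen in the other set. The score is the mean log2 CPM of 50 genes that rose minus that of 50 that fell in that other set. These were the genes of smallest p by edgeR among those called past 2-fold with a mean log2 CPM of at least 3. Apart from this filter on level, taken over all 16 libraries, markers and measured libraries are separate samples. Scores of pGM ran from -2.004 to 0.12 and those of GMP from 2.95 to 4.92, without overlap. The markers differ between sets, so libraries are ranked within a set. Among 2-digit identifiers GMP of 76 was lowest (2.95) and of 88 highest (4.56), and among 4-digit ones GMP ran from 4.02 to 4.92. GMP of identifier 76 also held the most Gfi1b and Flt3 RNA of the 8. HPC lay below, at -4.13 to -2.23, and at P0 pGM had -0.56 to -0.22 and GMP 2.74 to 3.61.

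**Figure D4:**
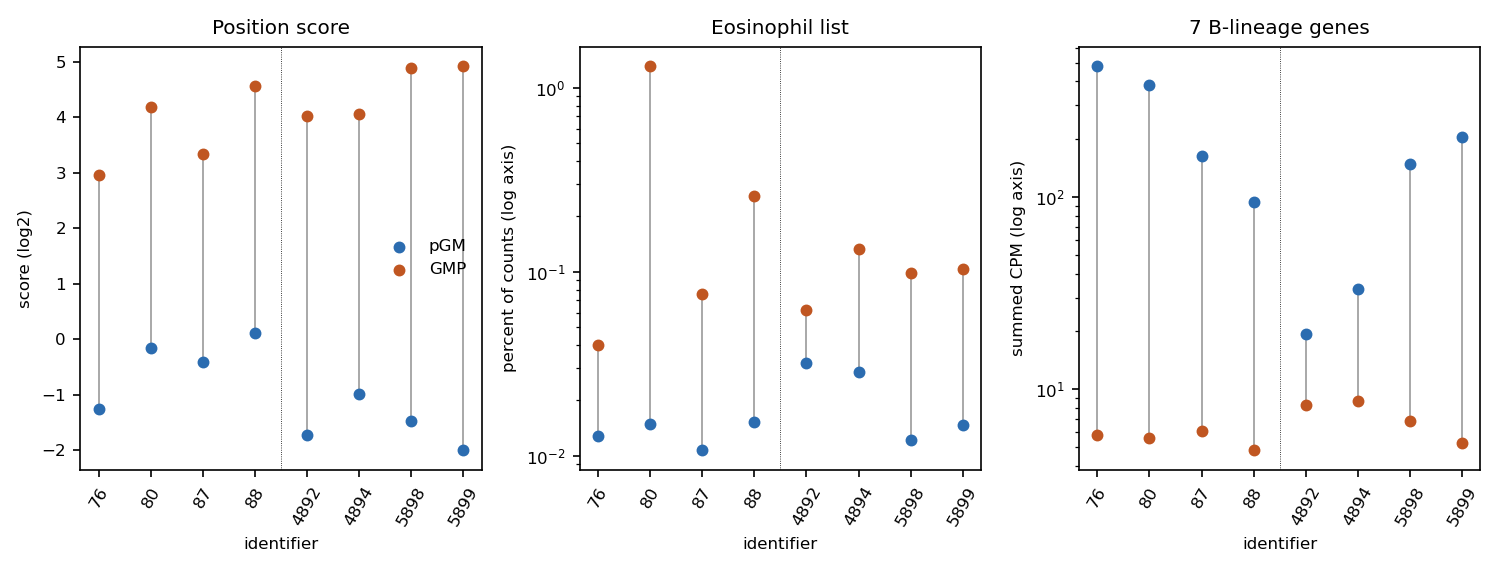
Values of each library by identifier, with pGM in blue and GMP in orange, the pair joined by a line, and 2-digit identifiers left of the dotted line. Panels show the position score (mean log2 CPM of rising minus falling markers), the percent of counts in the eosinophil list and the summed CPM of 7 B-lineage genes. The last 2 are on log axes and relative to unscaled totals. The scores of pGM and GMP stay apart, identifier 80 stands out among GMP for eosinophil genes, and B-lineage sums of pGM spread from 19.3 to 480.4 CPM.

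The same step at P0 was compared in 1 fit with 3 pairs of libraries from neonatal liver. Age and tissue differ together and cannot be told apart. The P0 step was called for 2913 of 13957 genes (20.9%). Its difference from the 10 week step was called for 231 genes with a higher value at 10 weeks (1.66%) and 646 with a lower one (4.63%). Several granule genes rose at both ages. Mpo rose by 2.09 at P0, Elane by 5.34, Prtn3 by 1.92 and Ctsg by 2.59, and the difference between ages was not called for any of the 4 (adjusted p 0.563, 0.128, 0.986 and 0.267 by edgeR). Of the 15 tested genes of the primary granule list, 6 had a lower value at 10 weeks, beside 4.63% of all genes (list median 2.01 at P0 and 1.65 at 10 weeks). They were Ms4a3, Nkg7, Cd63, Serpinb1a, Srgn and Lyz2. Ms4a3 rose by 5.70 at P0, a difference of -1.71 ± 0.38 (SE, adjusted p 0.0108 by edgeR), and Lyz2 rose by 2.01 at P0 and was not called at 10 weeks (difference -2.19 ± 0.32).

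Many later granule, eosinophil and mast cell genes had a lower log2 fold change at 10 weeks than at P0. The difference was lower at 10 weeks for 12 of 19 later granule genes (list median 5.93 at P0 and 0.85 at 10 weeks), 9 of 11 eosinophil genes (8.13 and 3.68) and 8 of 12 mast cell and basophil genes (3.34 and 0.42), beside 4.63% of all genes. Cpa3, a mast cell protease, rose by 3.05 on the log2 scale at P0 and by 0.41 at 10 weeks, a difference of -2.64 ± 0.25 (SE, adjusted p 1.87e-05 by edgeR). Cyp11a1, a steroid enzyme of mast cells and basophils, rose by 3.98 at P0 and had a step of 0.15 at 10 weeks that was not called. Gata1, counted among the 9 eosinophil genes, had an uncalled 0.17 at P0 and -1.38 at 10 weeks.

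Falls of some early genes were deeper at 10 weeks. Dntt had 4.02 to 15.7 CPM in P0 pGM and 2.32 to 6.96 CPM in P0 GMP, so that its low GMP level was shared and its high pGM level was not. Its difference was -5.69 ± 0.51 (SE). In the megakaryocyte list 10 of 14 genes had a lower value at 10 weeks (list median -0.11 at P0 and -1.45 at 10 weeks), in the stem list 9 of 23 and in the interferon list 7 of 20, beside 4.63% of all genes. Rtp4 fell by 0.98 at P0 and by 3.02 at 10 weeks. Il18rap, a chain of the interleukin 18 receptor, rose by 0.84 at P0 and fell by 1.79 at 10 weeks.

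Genes with a higher value at 10 weeks were fewer. Tfrc had an uncalled -0.45 at P0 and 1.54 at 10 weeks, and Mt1, a metallothionein gene, 0.18 and 2.15. Asns, asparagine synthetase, fell by 0.39 at P0 and rose by 1.04 at 10 weeks. Of 21 monocyte and dendritic genes 8 had a higher value at 10 weeks, beside 1.66% of all genes (list median -0.92 at P0 and -0.06 at 10 weeks). Ly86, a partner of a Toll-like receptor family member, fell by 1.45 at P0 and rose by 0.52 at 10 weeks, Ifi209 fell by 1.56 and rose by 0.81, and Pld4 fell by 2.22 at P0 with an uncalled 0.22 at 10 weeks. Counts of the age difference moved with the P0 pairs and the fit: they were 98 and 311 without P0 replicate 5, 121 and 378 without P0 replicate 3, 57 and 195 with the 2-digit identifiers alone and 84 and 261 without the block.

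**Figure D5:**
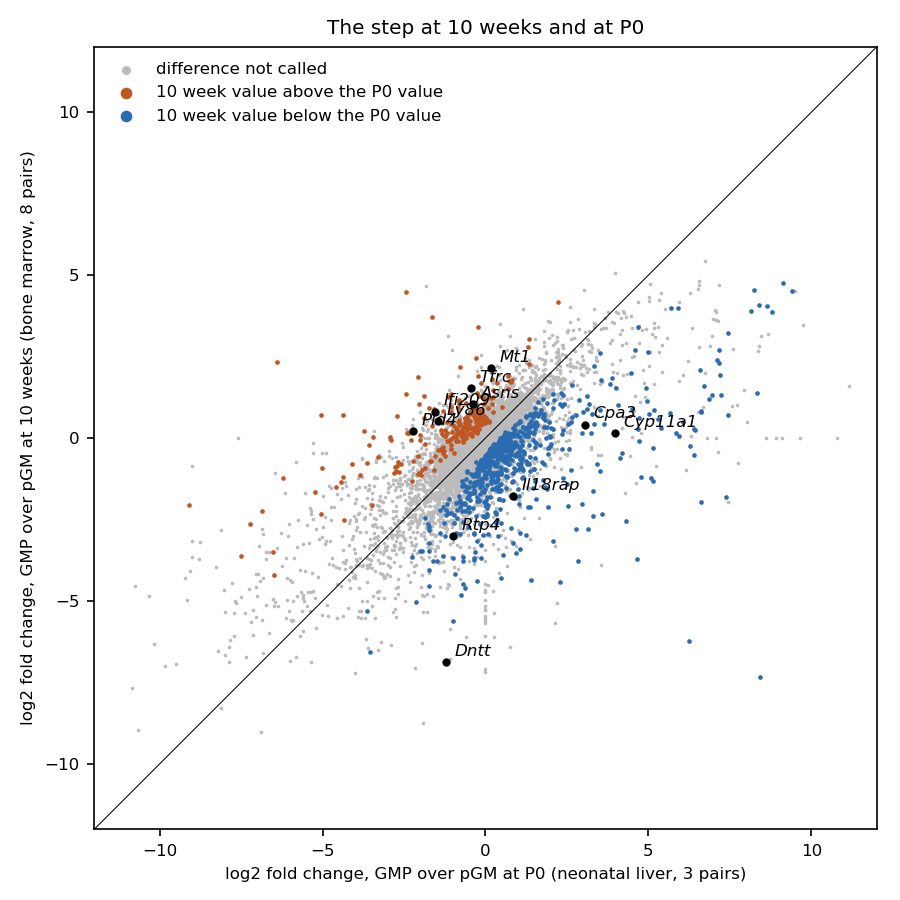
Log2 fold change from pGM to GMP at P0 (x axis, 3 pairs, neonatal liver) and at 10 weeks (y axis, 8 pairs, bone marrow) for 13957 genes. Orange and blue points are genes whose 10 week value was above or below the P0 value at an adjusted p under 0.05, black points are 11 genes named by rule and the line marks equal values. Blue points outnumber orange ones, 646 to 231, and many of them lie far to the right, where genes rose more at P0.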

How the data were processed

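Bulk RNA sequencing libraries were made from sorted cells with the Qiagen RNeasy micro plus and Clontech SMARTer kits, per the labels' protocols. The authors deposited 1 table of whole-number read counts per gene, made with STAR 3.0.4 and featureCounts 1.4.5 (Subread), per the submitters' processing notes. The sources used here give no build, annotation or strandedness for the counting. Of 41388 mouse genes 17437 had no count in the 16 libraries, and 3 transgene rows were left out. No library was pooled with another, and no pair of libraries compared within a group agreed within sampling noise (56 pairs, chi-square per degree of freedom 9.14 to 164).

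Counts were scaled by TMM in edgeR 4.0.16 (R 4.3.3), and genes were filtered by filterByExpr over population and identifier set, which kept 13208. The step was fitted by the quasi-likelihood F test with the identifier as a block, and p-values were adjusted by the Benjamini-Hochberg method at 0.05. Standard errors are the fold change divided by the root of F. The labels' identifiers pair the samples: pGM of all 8 identifiers matched best with its own GMP (correlation of deviations from the group means 0.204 to 0.418). The step within each set, and their difference, came from 1 fit with a step term per set. The age comparison added 3 P0 pairs, and the P0 GMP replicate 4 has no pGM partner and adds nothing under the block. Procedures were tested on simulated data. Alternatives were DESeq2 1.42.0, no filter on low counts, no block, each set alone and each replicate left out.

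Named genes were the 14 largest rises and falls among called genes with a mean log2 CPM of at least 3 and one direction in 8 of 8 pairs, the 10 most abundant genes of a population, up to 4 members of a list and, for age, the 6 genes of smallest p in each direction. Some genes that meet these rules are not reported here. Other members were named after their values were seen, to describe the lists. Members and lists were chosen with earlier results of these data known. Gene symbols came from GENCODE vM21 (40254 genes with a symbol), and promoters from RefSeq on GRCm38.p6 (9808 of the tested genes matched).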

Additional observations from a re-analysis of the deposited data

Results flagged for a closer look

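Among 264 sets of 8 values (each named gene in each population), 40 had a highest or lowest library that stood apart from the other 7 by Dixon's test. For normal values chance flags about 1 in 20 groups, 13.2 here, and CPM need not be normal. GMP of identifier 80 accounted for 18 of the 40. It was highest for the eosinophil and basophil genes Prg2 (12963 CPM), Epx (2419 CPM), Prss34 (2174 CPM), Mcpt8 (501 CPM), Prg3 (462 CPM) and Il5ra (5.58 CPM). It was also highest for Plac8 (12835 CPM), Calr (6063 CPM), P4hb (4577 CPM), Anxa1 (1253 CPM), Fcgr3 (1010 CPM), Cyba (888 CPM), Cd48 (628 CPM), Tfrc (163 CPM), Fcgr2b (156 CPM), Isg15 (13.3 CPM) and Batf3 (0.180 CPM), and lowest for Irf8 (88.2 CPM).

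Both libraries of identifier 76 stood apart in several genes. Its GMP was highest for Flt3 (115 CPM), Btg2 (57.4 CPM), H2-Ob (44.2 CPM), Gfi1b (30.0 CPM), Pglyrp2 (11.3 CPM), Mn1 (4.49 CPM) and Ccr9 (0.524 CPM). Its pGM was highest for Dntt (992 CPM), H2-DMa (773 CPM), Mn1 (149 CPM), Btg2 (135 CPM), Il7r (28.0 CPM), Fos (8.69 CPM) and Egr1 (6.17 CPM). In other libraries, pGM of identifier 87 stood apart for Flt3 (399 CPM) and Fdps (92.7 CPM), and GMP of 88 for Cd74 (101 CPM) and Cybb (100.6 CPM). GMP of 87 stood apart for Ccl5 (9.09 CPM), pGM of 88 for Prss34 (98.0 CPM), pGM of 80 for Myl10 (149 CPM) and pGM of 4894 for Gata1 (50.3 CPM).

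The step differed between 10 weeks and P0, by edgeR's test of the difference, for 231 genes in one direction and 646 in the other, other named genes among them. The 11 given here are of those with the smallest p in each direction. The difference (10 weeks minus P0, log2) was above 0 for Pld4 (2.44), Ifi209 (2.37), Tfrc (1.99), Mt1 (1.97), Ly86 (1.97) and Asns (1.43). It was below 0 for Dntt (-5.69), Cyp11a1 (-3.84), Cpa3 (-2.64), Il18rap (-2.63) and Rtp4 (-2.04).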

How the results depend on the processing

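Counts of genes past 2-fold in the step stayed within 1.5 times under every alternative run (588 to 636 higher and 1376 to 1514 lower with each replicate left out). At an adjusted p under 0.05 the step gave 2637 to 3111 higher and 3062 to 3476 lower with a replicate left out. Without the replicate block it gave 1985 higher and 2471 lower, and within the sets 1201 (2-digit) and 1294 (4-digit) higher. Fitted alone with the block, the 2-digit set gave 1210 higher and the 4-digit set 2914. With a replicate left out, genes higher ranged over 1325 to 2131 in the 2-digit and 1350 to 2394 in the 4-digit set. For the difference between sets, with 0 genes either way by edgeR, DESeq2 gave 1 higher and 5 lower (1 and 4 past 2-fold) and no filter on low counts gave 22 and 38 (17 and 35). With a replicate left out the range was 0 to 1 lower, the 1 being Ear2 without identifier 76 (-4.60, adjusted p 0.0484 by edgeR), chosen after its value was seen.

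For the difference between ages, with 231 genes higher and 646 lower (134 and 420 past 2-fold), the 2-digit identifiers alone gave 57 and 195 (55 and 180) and no block 84 and 261 (80 and 235). DESeq2 gave 347 higher, and no filter gave 210 higher past 2-fold. Leaving out a replicate gave 98 to 289 higher and 311 to 704 lower, and 80 to 153 and 254 to 449 past 2-fold. Of single genes, none turned direction. The block decided the calls of Aurkb, Cd48, Csf1r, Ddit3, Kit, Runx1, S100a8, S100a9, Spi1 and, between ages, Asns (1.48, adjusted p 0.074 without it by edgeR). Cenpf was lost when HPC joined the fit, and Lyz2 was called lower without identifier 80 (-0.23, adjusted p 0.0108). The cause of these changes was not tested. The list medians without identifier 80 were added after seeing the data. Depth limits genes under about 1 CPM, such as Batf3.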
